A study of Mus musculus with 12 samples.

Results

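The genes described here are 44 genes of DNA replication and S phase, the stretch of the cell cycle in which the genome is copied. They were matched by name to symbols in the deposited count table, and all 44 were found, among 55487 distinct gene IDs. The list was drawn up with earlier results of these data known. Its counts beside the shares of all genes are therefore a description and not an independent test. The 44 genes code for the proteins that license origins, activate the replicative helicase, synthesise and join DNA, supply nucleotides, pack new DNA into chromatin and commit a cell to S phase. The RNA came from BV2, a mouse microglial cell line immortalised with oncogenes, and the 4 groups had 3 libraries each. The HG+CD200Fc group was kept in high glucose with CD200Fc at 50 ng/mL, HG in high glucose alone, NG+CD200Fc in normal glucose with CD200Fc at 50 ng/mL, and NG in normal glucose alone. CD200Fc carries the ligand CD200 on an antibody Fc part and engages CD200R1, an inhibitory receptor found on myeloid cells. Neither the glucose levels nor the duration of exposure is stated in the sources used here, and no group served as a control for the Fc part or for osmolarity. All libraries come from the same line, and the labels do not say whether the replicates were separate cultures, so the p-values reflect only the spread between the libraries at hand, which may be technical.

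A replication origin is licensed in G1, when the origin recognition complex with CDC6 and CDT1 loads the ring of MCM proteins onto DNA. At the start of S phase CDC45 and the GINS complex join the ring and turn it into a moving helicase, polymerase alpha with primase lays down primers, and the clamp PCNA, placed by replication factor C, holds the main polymerases on DNA. Many of these genes are transcribed together at the border of G1 and S phase by E2F factors, which cyclin E kinase activity helps to release from the retinoblastoma protein. Cultured microglial lines cycle continuously, so their bulk RNA carries these transcripts at readily measured levels.

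The promoter stretches below are shown because E2F-type octamers were found in 7 of the 9 origin licensing genes with a promoter entry, and because the same letters stand in front of genes that differed in HG and of genes that did not. They come from the RefSeq promoter table (GRCm38.p6), which gives 250 bases before and 50 bases after each gene start, and are written 5′ to 3′ on the gene's strand. Capitals mark each match to TTTCCCGC, TTTCGCGC, TTTGCCGC or TTTGGCGC on either strand, with overlapping matches run together.
Mcm5 (chr8:75109327-75109396, plus strand): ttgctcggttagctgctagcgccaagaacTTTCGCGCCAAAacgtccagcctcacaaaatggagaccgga
Mcm6 (chr1:128359740-128359820, minus strand): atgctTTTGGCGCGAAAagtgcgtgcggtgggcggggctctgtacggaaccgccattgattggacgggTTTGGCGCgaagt
Mcm7 (chr5:138172010-138172079, minus strand): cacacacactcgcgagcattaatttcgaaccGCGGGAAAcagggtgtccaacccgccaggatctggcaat
Cdc6 (chr11:98907982-98908051, plus strand): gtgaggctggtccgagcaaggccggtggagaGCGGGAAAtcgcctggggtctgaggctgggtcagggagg
Orc1 (chr4:108579384-108579453, plus strand): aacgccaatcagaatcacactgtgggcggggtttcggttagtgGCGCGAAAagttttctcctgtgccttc
Gins3 (chr8:95633487-95633556, plus strand): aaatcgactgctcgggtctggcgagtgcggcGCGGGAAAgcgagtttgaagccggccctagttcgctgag
Pola1 (chrX:93632255-93632324, minus strand): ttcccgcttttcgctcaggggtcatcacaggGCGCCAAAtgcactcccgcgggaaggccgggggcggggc
The table held an entry for 36 of the 44 genes, and *Mcm4*, *Gins1*, *Gins2*, *Gins4*, *Prim2*, *Pole*, *Rfc2* and *Ccne2* had none. At least 1 of the 4 octamers stood in 13 of the 36 promoters (36.1%), against 704 of 27025 promoters in the whole table (2.6%) and 499 of 11070 promoters of genes tested here (4.51%). CCAAT, searched on both strands in the same windows, stood in 22 of the 36 (61.1%), against 41.1% of the whole table. In *Mcm5* an octamer pair overlapped at 153 and 149 bases before the start, and in *Mcm6* the 3 matches lay 110, 106 and 47 bases before it. The *Cdt1* match lay 33 bases into the gene. None of the 5 nucleotide supply genes had a match in this window. The share with a match was 34.8% (8 of 23) among genes that passed as lower in HG than in NG, and 38.5% (5 of 13) among those that did not pass. A match is a description of the letters and not evidence of binding.

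The libraries held 21454087 to 31905649 counts, of which 92303 to 145173 per library fell on the 44 genes. HG replicate 2 stood apart in having 1.49% of its counts on ribosomal RNA genes, while no other library exceeded 0.119%. The chi-square per degree of freedom of its counts was 41.8 and 29.1 against the other HG libraries and at most 14.8 for any other pair within a group, so the main counts are also given without it. The ribosomal RNA share also differed between groups. It was 0.0981% to 0.119% in HG+CD200Fc, 0.0698% and 0.0788% in HG replicates 1 and 3, 0.0563% to 0.0599% in NG+CD200Fc and 0.053% to 0.055% in NG. Protein-coding genes took 90.6% to 92.6% of counts in high glucose and 92.8% to 93.5% in normal glucose. The part of these shares in the results below was not tested. The labels contradict each other on origin, since BV2 microglia are named as the source, cell line and cell type, but the treatment protocol is about retinal tissue from mice and a sort for GFP. All 13 microglia and macrophage markers averaged at least 1 CPM (counts scaled to a common library size), with *Cd68* at 1470 CPM and *Csf1r* at 934 CPM, although *P2ry12* (1.68 CPM) and *Cx3cr1* (2.68 CPM), markers of resting microglia, were low. Of 8 photoreceptor and retinal neuron markers 1 averaged at least 1 CPM, namely *Pde6b* at 32.5 CPM. The summed level of the 13 microglial markers was 4230 to 4480 CPM in HG+CD200Fc, 4680 to 5290 CPM in HG, 4610 to 4770 CPM in NG+CD200Fc and 4880 to 5090 CPM in NG. The 5 endothelial markers summed to 9.49 to 10.9 CPM in HG+CD200Fc, 12.3 to 13.3 CPM in HG, 10.4 to 11.3 CPM in NG+CD200Fc and 8.98 to 9.91 CPM in NG, and the 5 T and B cell markers to 1.88 to 2.58, 3.18 to 4.25, 2.67 to 2.82 and 1.91 to 2.4 CPM in the same groups. The part of these markers in the results below was not tested. Of 5 fibroblast and pericyte markers, *Dcn* and *Lum* had 0 counts in all libraries, and *Glul* made up nearly all of the Müller glia and astrocyte sum, which was 141 to 147 CPM in HG+CD200Fc and 148 to 167 CPM in HG.

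Replication transcripts were lowest in high glucose without CD200Fc. The 44 genes took 0.425%, 0.43% and 0.429% of all counts in HG+CD200Fc, 0.389%, 0.372% and 0.382% in HG, 0.454%, 0.448% and 0.455% in NG+CD200Fc, and 0.461%, 0.446% and 0.449% in NG. The 3 HG libraries were the lowest of the 12, the HG+CD200Fc libraries lay between them and the rest, and the NG+CD200Fc and NG libraries overlapped. The median over the 44 genes of log2 CPM, taken relative to each gene's mean over 12 libraries, was -0.005, 0.019 and 0.002 in HG+CD200Fc, -0.106, -0.172 and -0.158 in HG, 0.07, 0.06 and 0.091 in NG+CD200Fc, and 0.133, 0.063 and 0.058 in NG. The spread within groups of this median was 0.0291 (pooled SD on the log2 scale). In bulk RNA a smaller share of cells in S phase and less of each transcript per cell cannot be told apart.

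**Figure D1:**
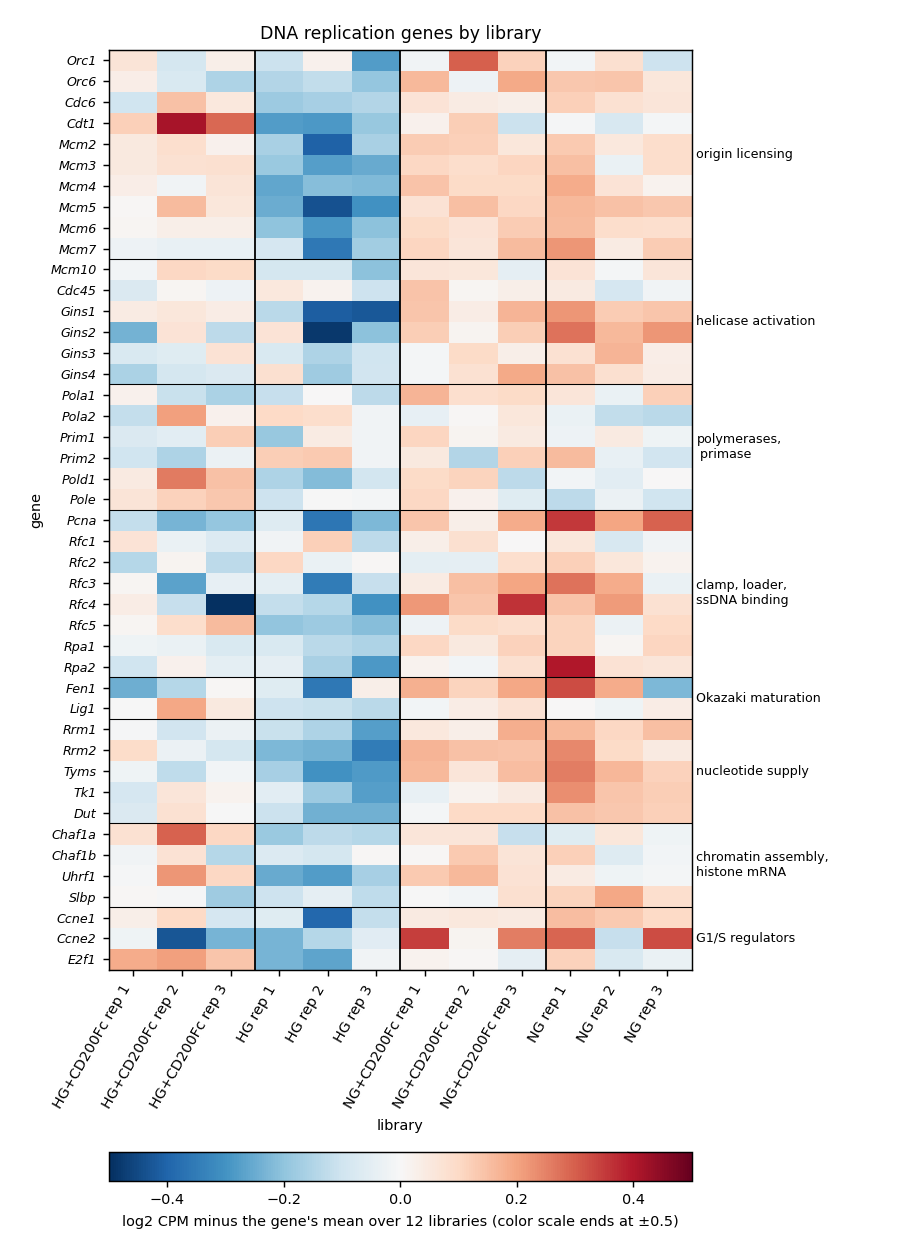
Log2 CPM of each of the 44 genes in each of the 12 libraries, relative to the gene's mean over the libraries (blue lower, red higher), with genes grouped by role. The origin licensing and nucleotide supply blocks are mostly blue in the 3 HG libraries, and the polymerase and primase block is mixed.

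All 44 genes passed the filter on low counts and were tested across the 19182 genes of the table with edgeR's quasi-likelihood test and Benjamini-Hochberg adjustment, a gene passing at an adjusted p under 0.05. In HG against NG, 26 of 44 genes passed as lower, against 12.9% of all genes, and 0 as higher, against 11.7%. The median log2 fold change of the 44 was -0.24, beside 0.0206 for all genes tested. At an unadjusted p under 0.05, 32 were lower and 1, *Pola2*, was higher, while DESeq2 and limma voom each called 28 lower and 0 higher. Libraries of the 2 groups did not overlap for 30 genes in the lower direction and 1 in the higher, against 19.8% and 19.9% of all genes. Without HG replicate 2, 22 genes passed as lower.

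With CD200Fc in both arms the glucose difference was smaller. In HG+CD200Fc against NG+CD200Fc, *Pcna*, *Rfc4*, *Ccne2* and *Pola1* passed as lower (4 of 44, against 3.65% of all genes) and *Cdt1* as higher (1 of 44, against 4.65%), with a median log2 fold change of -0.074 beside -6e-04 for all genes. Libraries did not overlap for 15 genes in the lower direction, against 14.2% of all genes, and for 2 in the higher, against 13.0%. These 5 calls rest on few libraries: 0 passed without HG+CD200Fc replicate 2, and 1 passed without HG+CD200Fc replicate 3, without NG+CD200Fc replicate 1 or without NG+CD200Fc replicate 3. The drop was not particular to these genes: over all genes the calls went from 1593 to 277, 646, 665 and 344 in the same fits. With upper quartile scaling the calls were 3 lower and 2 higher, and after removal of a trend over exon length and GC content 6 lower and 0 higher. The test of whether the glucose difference itself depended on CD200Fc is the interaction given below.

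**Figure D2:**
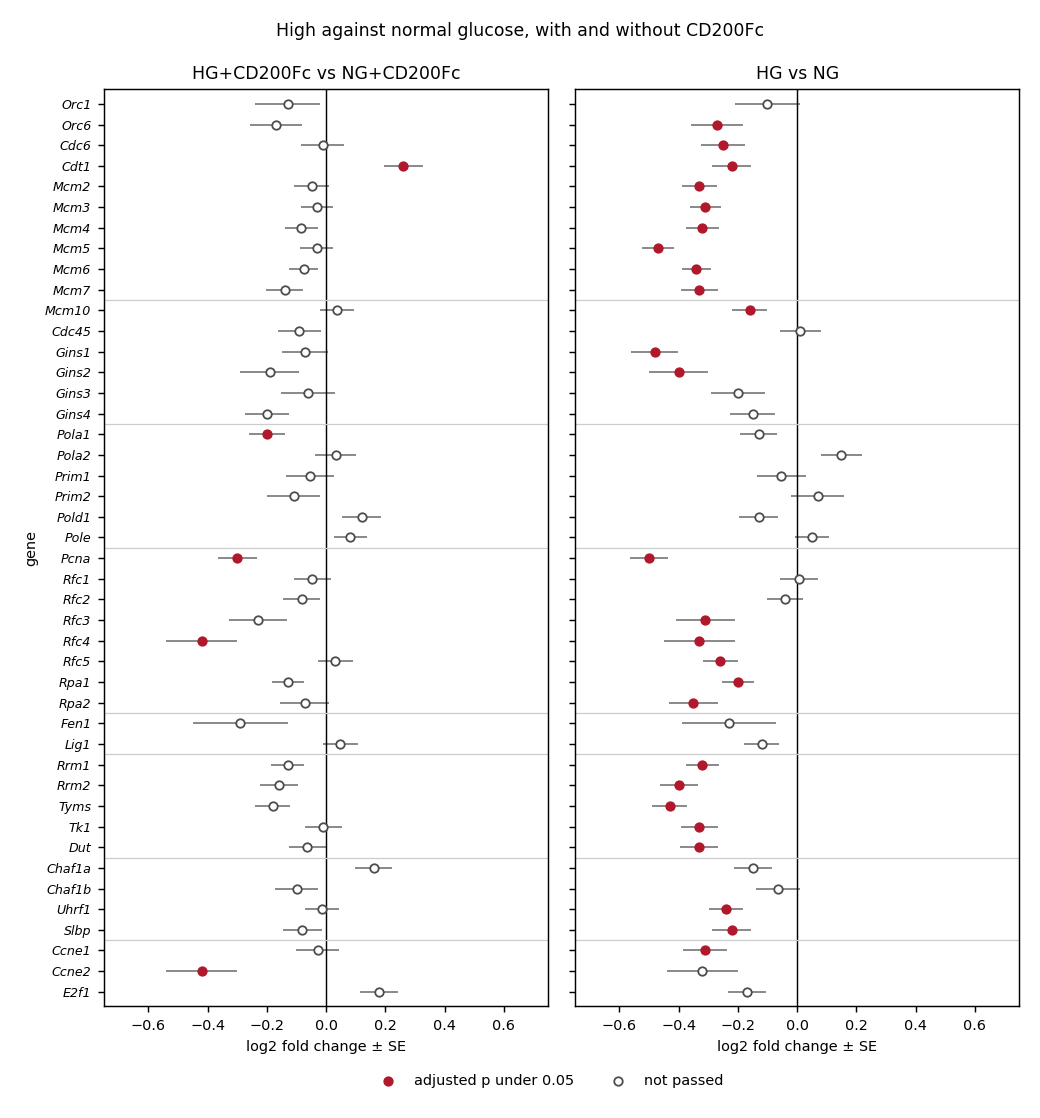
Log2 fold change with its standard error for each of the 44 genes in HG+CD200Fc against NG+CD200Fc (left) and HG against NG (right), 3 libraries per group, with filled red points for genes at an adjusted p under 0.05. The filled points on the right lie between -0.50 and -0.16, and 5 points are filled on the left.

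Replication genes were higher with CD200Fc in high glucose. In HG+CD200Fc against HG, 17 of 44 genes passed as higher, against 9.46% of all genes, and 0 as lower, against 8.3%. The median log2 fold change was 0.14, beside -0.0209 for all genes. At an unadjusted p under 0.05, 23 were higher and 0 lower, and DESeq2 called 23 higher and limma voom 20 higher, each with 0 lower. Libraries did not overlap for 21 genes in the higher direction, against 15.3% of all genes, and for 1 gene, *Prim2*, in the lower, against 16.0%. Without HG replicate 2, 15 passed as higher. This comparison shares the HG libraries with HG against NG, so the values of the same gene in both are set side by side below and are not independent.

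In normal glucose no difference with CD200Fc was detected among these genes. In NG+CD200Fc against NG, 0 of 44 genes passed, against 0% of all 19182 genes, with a median log2 fold change of 0.001 beside -3e-04 for all genes. At an unadjusted p under 0.05, 2 were lower (*Pcna* and *Tk1*) and 1 higher (*Uhrf1*), and DESeq2 and limma voom called 0. Libraries did not overlap for 6 genes in the lower direction, against 6.16% of all genes, and 1 in the higher, against 5.71%. The intervals bound the size of what could have been missed: for *Mcm5* the log2 fold change lay between -0.15 and 0.07 and for *Cdt1* between -0.08 and 0.18 (approximate 95% intervals).

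The CD200Fc effect in high glucose minus that in normal glucose (the interaction) was positive and passed for 10 of 44 genes, against 3.62% of all genes, and 0 were negative, against 3.58%, so that 7.2% of all genes passed in either direction. Its median over the 44 was 0.19 on the log2 scale, beside -0.0082 for all genes, and at an unadjusted p under 0.05 it was positive for 23 and negative for 0. DESeq2 called 13 and limma voom 14, all positive. The 10 genes were *Cdt1*, *Mcm2*, *Mcm3*, *Mcm5*, *Mcm6*, *Gins1*, *Rfc5*, *Tk1*, *Chaf1a* and *E2f1*. Their number depended on single libraries: 3 passed without NG replicate 1, and 6 without HG+CD200Fc replicate 2, HG+CD200Fc replicate 3, HG replicate 3 or NG replicate 3. Over all genes the calls went from 1381 to 974, 1015, 1026, 1196 and 1001 in the same fits. *Cdt1* and *Mcm5* passed under all 20 alternatives run for the interaction.

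**Figure D3:**
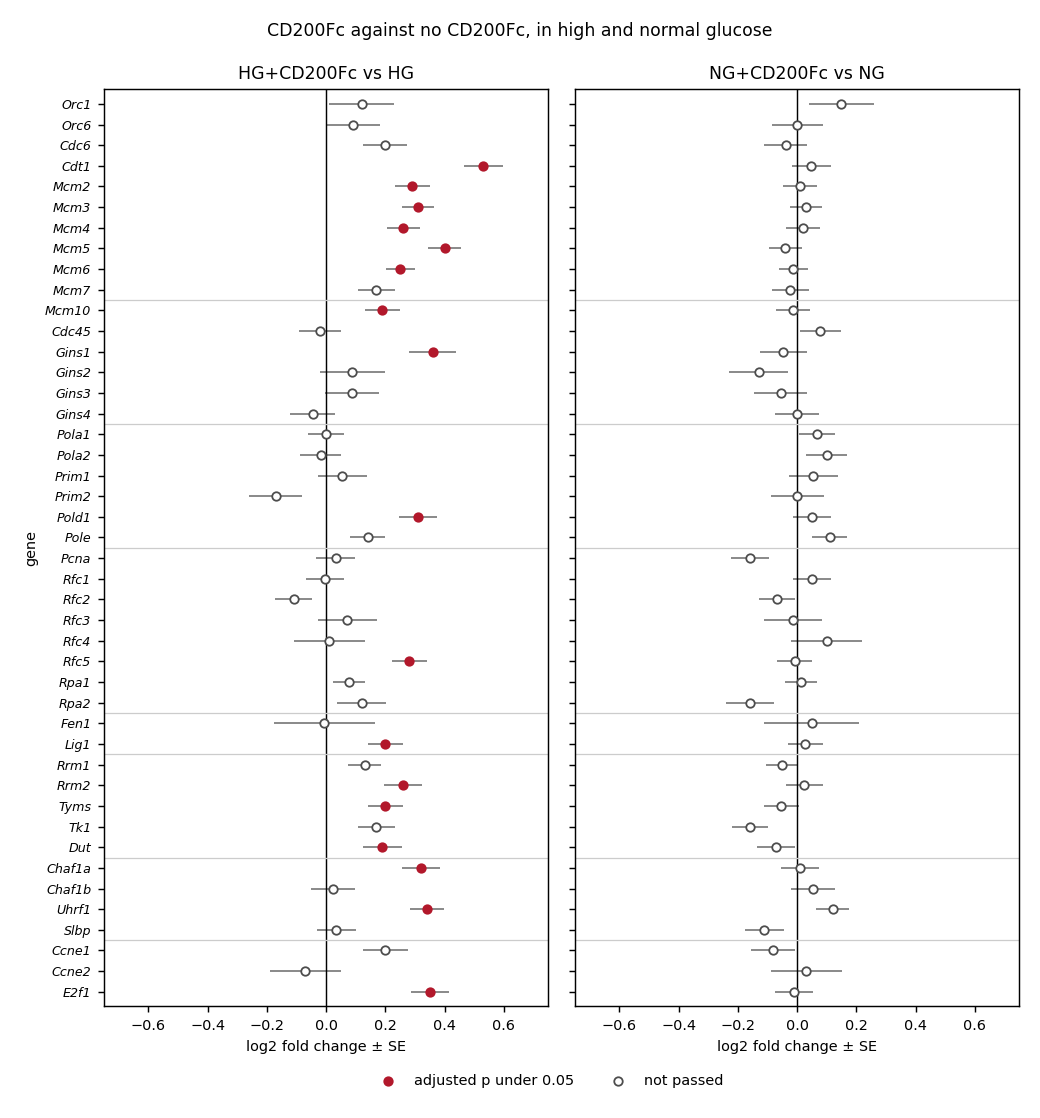
Log2 fold change with its standard error for each of the 44 genes in HG+CD200Fc against HG (left) and NG+CD200Fc against NG (right), 3 libraries per group, with filled red points for genes at an adjusted p under 0.05. On the left 17 points are filled, all to the right of 0 with *Cdt1* farthest at 0.53, and on the right none is filled.

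Of the 10 origin licensing genes 9 fell in HG against NG, against 12.9% of all genes. Their median log2 fold change was -0.32, and *Orc1* did not pass. With CD200Fc in high glucose (HG+CD200Fc against HG) 6 of 10 rose, against 9.46% of all genes, namely *Cdt1* and *Mcm2* to *Mcm6*. DESeq2 called 8 and limma voom 7. All 6 subunits of the MCM ring, *Mcm2* to *Mcm7*, fell in HG, with log2 fold changes between -0.47 and -0.31, and 5 of the 6 rose with CD200Fc in high glucose. *Mcm7* was the exception at 0.17 ± 0.062 (SE, edgeR adjusted p = 0.0654).

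*Mcm5*, a subunit of the ring, had 278, 309 and 288 CPM in HG+CD200Fc, 233, 205 and 224 CPM in HG, 291, 307 and 297 CPM in NG+CD200Fc, and 310, 306 and 304 CPM in NG. The 3 HG libraries lay below all 9 others, and the other groups overlapped. Its log2 fold change was -0.47 ± 0.055 (SE, n = 3 each) in HG against NG (edgeR adjusted p = 4.08e-07). CD200Fc in high glucose gave 0.40 ± 0.055 (HG+CD200Fc against HG, edgeR adjusted p = 5.88e-06), and HG+CD200Fc against NG+CD200Fc gave -0.032 ± 0.055, with an approximate 95% interval of -0.14 to 0.08. The interaction was 0.44 ± 0.078 (edgeR adjusted p = 0.000492), the smallest p of the 44 genes.

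*Cdt1*, the loading factor that geminin restrains outside G1, had 189, 232 and 213 CPM in HG+CD200Fc, 144, 143 and 153 CPM in HG, 177, 190 and 162 CPM in NG+CD200Fc, and 173, 165 and 173 CPM in NG. All HG+CD200Fc libraries were above all HG and all NG libraries, and 1 of them was just under the highest NG+CD200Fc library. It was the gene that rose most with CD200Fc in high glucose, by 0.53 ± 0.066 on the log2 scale (edgeR adjusted p = 1.58e-06). It was lower in HG than in NG by a log2 fold change of -0.22 ± 0.066 (edgeR adjusted p = 0.0155), a call lost without HG replicate 2 or under upper quartile scaling. It was higher in HG+CD200Fc than in NG+CD200Fc, at 0.26 ± 0.066 (edgeR adjusted p = 0.0152). That call was lost without HG+CD200Fc replicate 2 or 3 or NG+CD200Fc replicate 1 or 3. It was also lost after removal of the exon length and GC trend. The interaction was 0.48 ± 0.094 (edgeR adjusted p = 0.00139). The losses listed for single genes, here and below, may leave out other alternatives.

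The level of *Mcm6* was 326, 330 and 330 CPM in HG+CD200Fc, 282, 265 and 281 CPM in HG, 346, 340 and 354 CPM in NG+CD200Fc, and 362, 344 and 344 CPM in NG. The HG libraries were the lowest, and the HG+CD200Fc libraries lay above them and below all 6 normal glucose libraries. *Mcm3*, another ring subunit, had 237, 242 and 242 CPM in HG+CD200Fc, 201, 189 and 192 CPM in HG, 247, 244 and 247 CPM in NG+CD200Fc, and 254, 224 and 244 CPM in NG. Its HG libraries also lay below all others. The log2 fold change in HG against NG was -0.34 ± 0.049 for *Mcm6* (edgeR adjusted p = 9.21e-06) and -0.31 ± 0.053 for *Mcm3* (edgeR adjusted p = 8.94e-05). The rise with CD200Fc in high glucose was 0.25 ± 0.049 for *Mcm6* (edgeR adjusted p = 0.00043) and 0.31 ± 0.053 for *Mcm3* (edgeR adjusted p = 0.000113). Both interactions passed, at 0.27 ± 0.07 for *Mcm6* and 0.28 ± 0.075 for *Mcm3*. Neither passed without NG replicate 1, and that of *Mcm3* was also lost without HG+CD200Fc replicate 3 or NG replicate 3.

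*Orc1*, the ATPase of the origin recognition complex that is itself degraded and remade with the cell cycle in mammals, had 15.1, 13.6 and 14.7 CPM in HG+CD200Fc, 13.4, 14.7 and 11.9 CPM in HG, 14.3, 17.8 and 15.6 CPM in NG+CD200Fc, and 14.3, 15.3 and 13.4 CPM in NG. The groups overlapped, and its log2 fold change in HG against NG was -0.10 ± 0.11, with an interval of -0.32 to 0.11. The partner subunit *Orc6* fell in HG by 0.27 on the log2 scale (SE 0.088, edgeR adjusted p = 0.0278), a call lost without HG replicate 3, NG replicate 1 or NG replicate 2. The loader *Cdc6* fell by 0.25 (SE 0.073, edgeR adjusted p = 0.0129). With CD200Fc in high glucose *Cdc6* stood at 0.20 ± 0.074 and did not pass (edgeR adjusted p = 0.0608), although its HG+CD200Fc libraries were all above its HG libraries. Exons of *Orc1* overlap a gene on the other strand (1.58 CPM) over 10.8% of their length. Those of *Orc6* (22.2 CPM) overlap *Vps35* on the other strand (147 CPM) over 6.93%. It is not stated whether counting used strand. *Mcm2* and *Mcm4* fell by 0.33 and 0.32 in HG and rose to 235 and 110 CPM in HG+CD200Fc, against 192 and 91.6 CPM in HG.

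Per kilobase of exon, ring subunits were among the most abundant of these transcripts. *Pcna* was highest at 101 mean CPM per kilobase, followed by *Mcm5* at 69.9, *Mcm6* at 69.7, *Mcm3* at 61.4 and *Cdt1* at 56.1, and *Fen1* was lowest at 2.51. Exon length here is that of all annotated exons merged, which can exceed the length of the transcript made, so the ranking is approximate. The place of *Fen1* is uncertain, since a gene on the other strand overlaps 78.8% of its exon length.

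Helicase activation genes were split. *Gins1*, *Gins2* and *Mcm10* fell in HG against NG, 3 of 6, against 12.9% of all genes. *Gins3*, *Gins4* and *Cdc45* did not pass. *Gins1* and *Mcm10* rose in HG+CD200Fc against HG, 2 of 6, against 9.46% of all genes. *Gins1* is a subunit of the GINS complex, and it had 37.0, 37.4 and 37.0 CPM in HG+CD200Fc, 32.8, 27.1 and 26.9 CPM in HG, 39.6, 37.0 and 40.6 CPM in NG+CD200Fc, and 42.0, 39.4 and 39.7 CPM in NG. The HG libraries lay below the 9 others. Its log2 fold change was -0.48 ± 0.079 in HG against NG (edgeR adjusted p = 5.55e-05) and 0.36 ± 0.08 in HG+CD200Fc against HG (edgeR adjusted p = 0.00166), with an interaction of 0.41 ± 0.11 (edgeR adjusted p = 0.0223) that was lost without HG replicate 2, HG replicate 3 or NG replicate 1.

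The helicase partner *Cdc45* had 38.6, 41.0 and 39.9 CPM in HG+CD200Fc, 42.2, 41.2 and 37.8 CPM in HG, 44.9, 40.9 and 41.4 CPM in NG+CD200Fc, and 41.9, 38.3 and 40.2 CPM in NG. All 4 groups overlapped. Its log2 fold change in HG against NG was 0.011 ± 0.07, with an interval of -0.13 to 0.15 that leaves out changes of the size seen for *Gins1*. *Mcm10*, which helps the helicase start, had a log2 fold change of -0.16 ± 0.058 in HG against NG and 0.19 ± 0.058 in HG+CD200Fc against HG, and its call in HG against NG was lost without HG replicate 3, NG replicate 1 or NG replicate 3 and under upper quartile scaling. Its rise with CD200Fc was lost without HG replicate 3 or HG+CD200Fc replicate 2 or 3. *Gins2* was at -0.40 ± 0.10 in HG against NG, and its call was lost without HG replicate 2. Exons of *Gse1*, a gene on the other strand with a mean of 145 CPM, overlap 67.3% of the exon length of *Gins2* (27.3 CPM), so the *Gins2* counts are uncertain.

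The polymerase and primase genes had a median log2 fold change of -0.002 in HG against NG. Of them 0 of 6 passed, against 24.6% of all genes in either direction. With 6 genes, 0 calls cannot be set apart from that share. At an unadjusted p under 0.05, 2 differed, and DESeq2 called 0 and limma voom 1. *Pola2*, the accessory subunit of polymerase alpha, had 63.1, 78.9 and 69.5 CPM in HG+CD200Fc, 73.4, 72.8 and 67.8 CPM in HG, 66.5, 68.8 and 71.2 CPM in NG+CD200Fc, and 67, 62.9 and 62.3 CPM in NG. Its HG libraries were all above its NG libraries, the opposite order to the ring subunits, but its log2 fold change of 0.15 ± 0.069 did not pass (edgeR adjusted p = 0.104). *Pold1*, the catalytic subunit of polymerase delta, had 136, 158 and 146 CPM in HG+CD200Fc, 119, 114 and 124 CPM in HG, 141, 143 and 121 CPM in NG+CD200Fc, and 131, 128 and 132 CPM in NG. Its HG+CD200Fc libraries were above all HG and all NG libraries. It was the polymerase gene that rose in edgeR with CD200Fc in high glucose, by 0.31 ± 0.065 (edgeR adjusted p = 0.00116). That made 1 of 6, against 9.46% of all genes. In that comparison DESeq2 called 2 of the 6 polymerase and primase genes higher and limma voom 1. The *Pold1* log2 fold change in HG against NG was -0.13 ± 0.065 (edgeR adjusted p = 0.144).

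The remaining polymerase and primase genes did not pass in HG against NG. *Pola1*, the catalytic subunit of polymerase alpha, averaged 84.5 ± 5.51 CPM in HG+CD200Fc, 84.6 ± 4.32 CPM in HG, 97.0 ± 3.06 CPM in NG+CD200Fc and 92.5 ± 4.81 CPM in NG (SD, n = 3 each). It passed as lower in HG+CD200Fc against NG+CD200Fc, at -0.20 ± 0.062 (edgeR adjusted p = 0.0461), and that call was lost under 9 alternatives, among them DESeq2 size factors, upper quartile scaling, a fit of the compared groups alone and leaving out HG+CD200Fc replicate 2 or 3, HG replicate 3, NG+CD200Fc replicate 1 or 3 or NG replicate 3. *Prim1* and *Prim2*, the primase subunits, had log2 fold changes of -0.053 ± 0.082 and 0.069 ± 0.09 in HG against NG. *Pole*, the catalytic subunit of polymerase epsilon, was at 0.05 ± 0.058 in HG against NG and 0.14 ± 0.058 in HG+CD200Fc against HG, and neither passed in edgeR.

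Genes of the sliding clamp, its loader and the single-strand binding protein mostly fell in HG. Of the 8 genes 6 fell in HG against NG, against 12.9% of all genes, and *Rfc1* and *Rfc2* did not pass. The gene that rose in HG+CD200Fc against HG was *Rfc5*, 1 of 8 (12.5%), near the 9.46% of all genes. In that comparison 6 of the 8 log2 fold changes were positive and 2 negative. *Pcna*, the clamp itself, had 221, 204 and 210 CPM in HG+CD200Fc, 229, 187 and 205 CPM in HG, 264, 244 and 272 CPM in NG+CD200Fc, and 306, 275 and 294 CPM in NG. The 6 high glucose libraries were below the 6 normal glucose libraries, and the 2 high glucose groups overlapped. *Pcna* fell most of the 44 genes in HG against NG, with a log2 fold change of -0.50 ± 0.065 (edgeR adjusted p = 2.3e-06), and it was lower in HG+CD200Fc than in NG+CD200Fc by -0.30 ± 0.065 (edgeR adjusted p = 0.00618), a call lost without HG+CD200Fc replicate 2. The value in HG+CD200Fc against HG was 0.032 ± 0.065, with an interval of -0.09 to 0.16. Its interaction, 0.20 ± 0.091, did not pass (edgeR adjusted p = 0.231), so an effect of CD200Fc in high glucose different from that in normal glucose was not detected for *Pcna*.

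*Rfc1*, the large subunit of the clamp loader, had 107, 99.8 and 97.5 CPM in HG+CD200Fc, 101, 111 and 93.3 CPM in HG, 104, 108 and 102 CPM in NG+CD200Fc, and 106, 96.7 and 101 CPM in NG. The groups overlapped, and the log2 fold change in HG against NG was 0.006 ± 0.063 (interval -0.12 to 0.13). Of the small loader subunits, *Rfc3*, *Rfc4* and *Rfc5* fell in HG and *Rfc2* did not pass. *Rfc5* fell by 0.26 in HG (SE 0.059) and averaged 103 ± 5.22 CPM in HG+CD200Fc, against 84.5 ± 0.954 CPM in HG (SD, n = 3 each). *Rfc4* was lower in HG than in NG, at -0.33 ± 0.12, and in HG+CD200Fc than in NG+CD200Fc, at -0.42 ± 0.12 (edgeR adjusted p = 0.0284). The *Rfc4* call in HG against NG was lost under upper quartile scaling and without HG replicate 2 or 3 or any NG replicate, and that in HG+CD200Fc against NG+CD200Fc without HG+CD200Fc replicate 2 or 3 or NG+CD200Fc replicate 1 or 3. *Rfc3* fell by 0.31 in HG (SE 0.099), a call lost without HG replicate 2, NG replicate 1 or NG replicate 2, and *Rfc2* stood at -0.041 ± 0.062. Genes on the other strand overlap 15.1% of the exon length of *Rfc2*, 12.7% of *Rfc4* and 10.7% of *Rfc5*. *Rpa1* and *Rpa2*, the large and middle subunits of the single-strand binding protein, fell in HG by 0.20 (SE 0.054) and 0.35 (SE 0.082). With CD200Fc in high glucose they stood at 0.078 ± 0.054 and 0.12 ± 0.083, and neither passed.

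**Figure D4:**
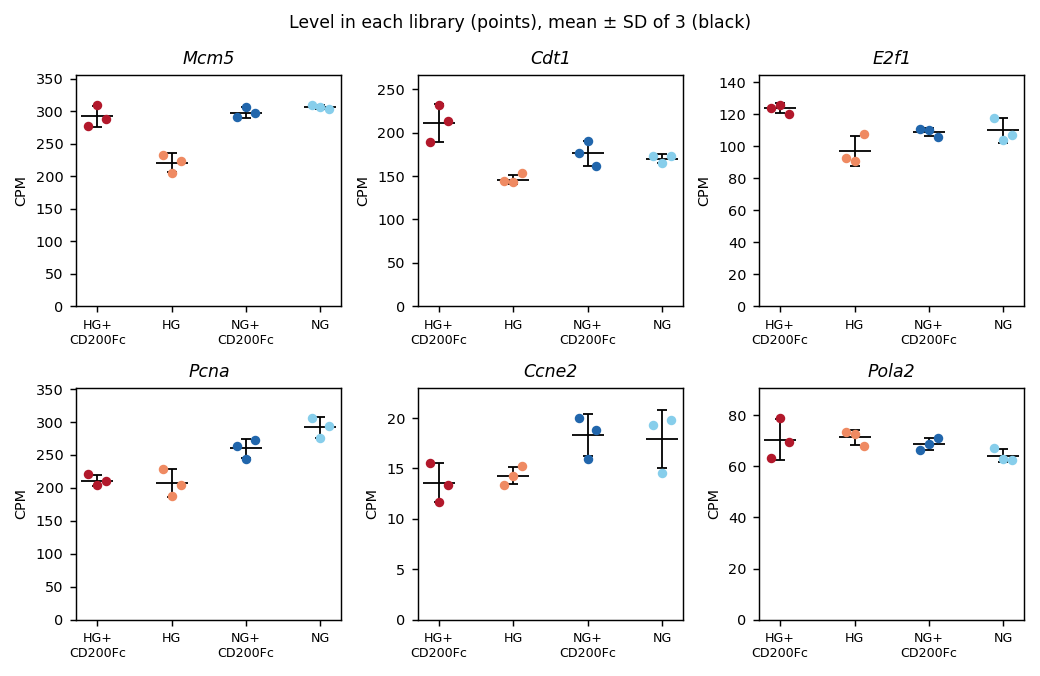
CPM of 6 genes in each library (points) with the mean and SD of 3 libraries (black), for HG+CD200Fc, HG, NG+CD200Fc and NG, each axis starting at 0. *Mcm5*, *Cdt1* and *E2f1* are lowest in HG and higher in HG+CD200Fc, *Pcna* and *Ccne2* are low in both high glucose groups, and the *Pola2* points lie between 62.3 and 78.9 CPM in all groups.

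Of the genes that finish Okazaki fragments, 0 of 2 passed in HG against NG, against 24.6% of all genes in either direction. With 2 genes, 0 calls cannot be set apart from that share. At an unadjusted p under 0.05, 1 differed, and DESeq2 and limma voom called 0. *Fen1*, the flap nuclease, had 5.08, 5.46 and 6.05 CPM in HG+CD200Fc, 5.78, 4.7 and 6.15 CPM in HG, 6.82, 6.51 and 6.89 CPM in NG+CD200Fc, and 7.54, 6.85 and 5.16 CPM in NG. HG and NG overlapped, and the log2 fold change of -0.23 ± 0.16 had an interval of -0.55 to 0.08, wide enough to hold the fall seen for *Mcm5*. The antisense gene *Gm10143* covers 78.8% of the *Fen1* exon length, so these counts are uncertain. *Lig1*, the ligase, had 77.5, 88.8 and 80.3 CPM in HG+CD200Fc, 72.2, 72.0 and 70.7 CPM in HG, 77.0, 79.8 and 81.8 CPM in NG+CD200Fc, and 77.8, 76.6 and 79.8 CPM in NG. Its HG libraries lay below the 9 others. It rose by 0.20 ± 0.059 in HG+CD200Fc against HG (edgeR adjusted p = 0.0192), a call lost without HG+CD200Fc replicate 2 or HG replicate 3, and it was at -0.12 ± 0.059 in HG against NG (edgeR adjusted p = 0.135).

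All 5 nucleotide supply genes fell in HG against NG, against 12.9% of all genes, with log2 fold changes between -0.43 and -0.32. *Rrm2*, *Tyms* and *Dut* rose in HG+CD200Fc against HG, 3 of 5 by edgeR, against 9.46% of all genes. DESeq2 and limma voom each called all 5, *Rrm1* and *Tk1* included. *Tyms*, thymidylate synthase, had 96.9, 90.2 and 97.6 CPM in HG+CD200Fc, 87.7, 79.8 and 81.0 CPM in HG, 110, 103 and 109 CPM in NG+CD200Fc, and 117, 111 and 107 CPM in NG. Its libraries fell into 3 steps, with HG lowest, HG+CD200Fc in between and the 2 normal glucose groups highest and overlapping. The log2 fold change was -0.43 ± 0.059 in HG against NG (edgeR adjusted p = 5.31e-06), 0.20 ± 0.06 in HG+CD200Fc against HG (edgeR adjusted p = 0.0211) and -0.18 ± 0.059 in HG+CD200Fc against NG+CD200Fc (edgeR adjusted p = 0.0595). The rise with CD200Fc was lost without HG+CD200Fc replicate 1 or 3 or HG replicate 2 or 3.

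*Rrm1*, the large subunit of ribonucleotide reductase, had 268, 251 and 263 CPM in HG+CD200Fc, 249, 241 and 222 CPM in HG, 278, 274 and 304 CPM in NG+CD200Fc, and 301, 289 and 298 CPM in NG. The HG libraries were lowest, and the log2 fold change in HG against NG was -0.32 ± 0.055 (edgeR adjusted p = 0.000105). *Rrm2*, the S phase small subunit of the same enzyme, averaged 67.5 ± 4.29 CPM in HG+CD200Fc, 56.3 ± 2.64 CPM in HG, 75.4 ± 0.814 CPM in NG+CD200Fc and 74.1 ± 5.25 CPM in NG (SD, n = 3 each). It fell by 0.40 in HG (SE 0.064) and rose by 0.26 ± 0.064 with CD200Fc in high glucose. *Tk1*, the salvage kinase for thymidine, fell by 0.33 in HG (SE 0.062), and its interaction was 0.32 ± 0.087 (edgeR adjusted p = 0.0201), lost without HG+CD200Fc replicate 2 or 3, HG replicate 3, NG+CD200Fc replicate 1 or NG replicate 1. This interaction combined a log2 fold change of 0.17 ± 0.062 in HG+CD200Fc against HG with -0.16 ± 0.061 in NG+CD200Fc against NG, neither of which passed in edgeR. *Dut*, which removes dUTP, fell by 0.33 in HG (SE 0.064) and rose by 0.19 ± 0.065 with CD200Fc, the rise being lost without HG+CD200Fc replicate 2 or 3 or HG replicate 2 or 3.

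Among the genes of chromatin assembly and histone mRNA, *Uhrf1* and *Slbp* fell in HG against NG, 2 of 4, against 12.9% of all genes. *Uhrf1* and *Chaf1a* rose in HG+CD200Fc against HG, 2 of 4, against 9.46% of all genes. *Uhrf1*, which brings the maintenance DNA methyltransferase to newly copied DNA, had 210, 245 and 226 CPM in HG+CD200Fc, 177, 173 and 188 CPM in HG, 230, 236 and 221 CPM in NG+CD200Fc, and 217, 208 and 209 CPM in NG. The HG libraries lay below the 9 others. Its log2 fold change was -0.24 ± 0.057 in HG against NG (edgeR adjusted p = 0.00302) and 0.34 ± 0.057 in HG+CD200Fc against HG (edgeR adjusted p = 8.28e-05).

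*Chaf1b*, the middle subunit of chromatin assembly factor 1, had 39.0, 41.4 and 35.7 CPM in HG+CD200Fc, 37.6, 37.1 and 39.7 CPM in HG, 39.6, 43.1 and 41.3 CPM in NG+CD200Fc, and 42.8, 37.7 and 39.0 CPM in NG. The groups overlapped, and the log2 fold change in HG against NG was -0.064 ± 0.074. The large subunit, *Chaf1a*, averaged 119 ± 10.0 CPM in HG+CD200Fc, 95.8 ± 2.02 CPM in HG, 107 ± 7.39 CPM in NG+CD200Fc and 106 ± 4.42 CPM in NG (SD, n = 3 each), and it rose by 0.32 ± 0.064 in HG+CD200Fc against HG (edgeR adjusted p = 0.00069). Exons of *Ubxn6* on the other strand (10.6 CPM) overlap 52.5% of its exon length. *Slbp*, which binds the stem-loop of histone mRNAs, fell by 0.22 in HG (SE 0.066), a call lost without NG replicate 2, and was at 0.034 ± 0.066 with CD200Fc in high glucose.

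Of the 3 G1/S regulators, *Ccne1* fell in HG against NG, where 12.9% of all genes did. *E2f1* rose in HG+CD200Fc against HG, where 9.46% of all genes did. In HG against NG DESeq2 called all 3 lower and limma voom 2, and in HG+CD200Fc against HG DESeq2 called 2 higher and limma voom 1. *E2f1*, the transcription factor that activates many replication genes, had 124, 126 and 120 CPM in HG+CD200Fc, 92.9, 91.0 and 108 CPM in HG, 111, 110 and 106 CPM in NG+CD200Fc, and 118, 104 and 107 CPM in NG. All 3 HG+CD200Fc libraries were above the 9 others, and HG overlapped both normal glucose groups. It rose by 0.35 ± 0.064 in HG+CD200Fc against HG (edgeR adjusted p = 0.000264), and its interaction was 0.36 ± 0.091 (edgeR adjusted p = 0.0135), a call lost without NG replicate 1. In HG against NG it was at -0.17 ± 0.064, just over the threshold (edgeR adjusted p = 0.0512).

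*Ccne2*, 1 of the 2 E-type cyclins, had 15.5, 11.7 and 13.4 CPM in HG+CD200Fc, 13.4, 14.3 and 15.2 CPM in HG, 20, 15.9 and 18.8 CPM in NG+CD200Fc, and 19.3, 14.6 and 19.8 CPM in NG. The high glucose libraries were below the NG+CD200Fc libraries, and HG overlapped NG through 1 NG library. It was lower in HG+CD200Fc than in NG+CD200Fc, at -0.42 ± 0.12 (edgeR adjusted p = 0.0327), a call lost without HG+CD200Fc replicate 2 or 3 or NG+CD200Fc replicate 1 or 3. In HG against NG it was at -0.32 ± 0.12 (edgeR adjusted p = 0.0553). *Ints8* on the other strand overlaps 17.4% of its exon length. The other E-type cyclin, *Ccne1*, averaged 48.4 ± 3.09 CPM in HG+CD200Fc, 42.1 ± 4.97 CPM in HG, 49.4 ± 0.166 CPM in NG+CD200Fc and 52.2 ± 1.01 CPM in NG (SD, n = 3 each), with a log2 fold change of -0.31 ± 0.075 in HG against NG (edgeR adjusted p = 0.00279).

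Genes around this machinery that are not among the 44 moved in the same direction in part. Their lists too were drawn up with earlier results of these data known. Of 48 other replication factors, 21 fell and 1 rose in HG against NG, against 12.9% and 11.7% of all genes. Their median log2 fold change was -0.17, beside 0.0206 for all genes tested. *Orc2*, a further origin recognition subunit, was at -0.43 ± 0.061 (edgeR adjusted p = 9.1e-06), and *Dbf4*, the activator of the CDC7 kinase, at -0.37 ± 0.06 (edgeR adjusted p = 4.87e-05). The gene that rose was *Samhd1*, which breaks down deoxynucleotides, at 244 ± 11.9 CPM in HG and 194 ± 4.33 CPM in NG (SD, n = 3 each).

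With CD200Fc in high glucose 15 of these 48 rose, against 9.46% of all genes, among them *Ticrr*, *Dna2* and *Recql4*. *Samhd1* fell, against 8.3% of all genes. *Ticrr*, which helps load CDC45, rose by 0.43 ± 0.067 (edgeR adjusted p = 3.25e-05). Between HG+CD200Fc and NG+CD200Fc, 2 of the 48 were higher, against 4.65% of all genes, with *Recql4*, a helicase of initiation, at 0.33 ± 0.068. Of the 48, 5 were lower, against 3.65%, among them *Orc2* at -0.26 ± 0.061 and *Dtymk*, thymidylate kinase, at -0.30 ± 0.076. The interaction passed as positive for 5, against 3.62% of all genes, and as negative for 0, against 3.58%. *Wee1*, an inhibitory kinase of the cell cycle, was at 0.47 ± 0.11 and *Dna2*, a nuclease of Okazaki fragments, at 0.40 ± 0.10. In NG+CD200Fc against NG the smallest adjusted p of the 48 was 0.816 (edgeR).

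Of 29 further genes of G1/S control, 28 were tested and *Mycn* was too low. In HG against NG 11 fell and 1 rose, against 12.9% and 11.7% of all genes. *Ccnd1*, a D-type cyclin that answers to growth signals, averaged 228 ± 16.0 CPM in HG+CD200Fc, 154 ± 7.8 CPM in HG, 250 ± 25.4 CPM in NG+CD200Fc and 248 ± 13.6 CPM in NG (SD, n = 3 each). Its log2 fold change was -0.69 ± 0.067 in HG against NG (edgeR adjusted p = 2.73e-08) and 0.56 ± 0.067 in HG+CD200Fc against HG (edgeR adjusted p = 8.24e-07). *Ccnd2*, another D-type cyclin, stood at -0.44 ± 0.05 and 0.42 ± 0.05 in the same comparisons. The inhibitor *Cdkn1a* fell by 0.36 in HG (SE 0.055), as did *Tfdp1*, the partner of E2F factors, by 0.32 (SE 0.055).

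The gene of this list that rose in HG was *Cdkn1c*, a kinase inhibitor, chosen for mention because it was the exception. It averaged 1.10 ± 0.225 CPM in HG+CD200Fc, 2.66 ± 0.593 CPM in HG, 1.5 ± 0.302 CPM in NG+CD200Fc and 1.01 ± 0.207 CPM in NG (SD, n = 3 each). With CD200Fc in high glucose 11 of the 28 rose, against 9.46% of all genes, and *Cdkn1c* fell, against 8.3%. The 4 with the smallest p were *Ccnd2*, *Ccnd1*, *Cdc25a* and *E2f8*. *Cdc25a*, the phosphatase that activates CDK2, rose by 0.39 ± 0.061, and *E2f8*, a repressor of the E2F family, by 0.75 ± 0.10. The interaction passed for 7 in the positive direction, against 3.62% of all genes, with *Ccnd1* at 0.55 ± 0.094 (edgeR adjusted p = 0.000399). In the negative direction, against 3.58% of all genes, it passed for *Cdkn1c*, at -1.84 ± 0.43 (edgeR adjusted p = 0.00698). For HG+CD200Fc against NG+CD200Fc the smallest adjusted p of the 28 was 0.0825 (edgeR).

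The authors' deposited table lists fold changes for 15372 genes and holds all 44. In the authors' deposited table, at a false discovery rate under 0.05, 25 of the 44 were lower in HG than in NG (15.9% of its genes were), 17 were higher in HG+CD200Fc than in HG (11.5% of its genes), and 0 differed between NG+CD200Fc and NG (0% of its genes). That table also gives HG+CD200Fc against NG, in which 5 of the 44 were lower, against 13.2% of its genes, and 2 higher, against 12.8%. By the authors' deposited table the lower ones were *Pcna* at -0.45, *Ccne2* at -0.38, *Gins2* at -0.30, *Tyms* at -0.22 and *Slbp* at -0.18 on the log2 scale. By the authors' deposited table the higher ones were *Cdt1* at 0.32 and *Pole* at 0.20. HG+CD200Fc against NG was not computed here. In HG against NG, HG+CD200Fc against HG and NG+CD200Fc against NG, the authors' log2 fold changes of the 44 genes in their table were set beside those computed here. They differed from the rounded values computed here by at most 0.0135.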

How the data were processed

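RNA of 12 libraries in 4 groups was sequenced after removal of ribosomal RNA, as paired-end reads of 150 bases, per the labels' protocols. The authors deposited raw, unnormalised counts for each gene and library. Per the submitters' processing notes, the tools were bcl2fastq, STAR 2.7.9a, Subread featureCounts 2.0.3, Salmon 1.5.2, edgeR and limma, with build GRCm38. Which annotation release and strand setting were used is not stated in the sources used here. A second table deposited by the authors gives log2 fold changes and p-values, per the file headers, and was used only where the text names it.

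The count table had 55774 lines for 55487 IDs, and 287 repeated lines were dropped. Coordinates, exon lengths and overlaps came from GENCODE M21 (99.5% of IDs matched). Genes were filtered with filterByExpr, which left 19182, and scaled by TMM. A quasi-likelihood model of the group means of all 12 libraries was fitted in edgeR 4.0.16 (R 4.3.3, robust, biological coefficient of variation 0.0908), with 5 comparisons and Benjamini-Hochberg adjustment within each. It was also run on simulated data, but how often changes of the size seen here are recovered is not reported. Intervals are the log2 fold change ± 1.96 SE. DESeq2 1.42.0, limma 3.58.1 and other alternatives are in the closing section. Reads carry no molecular identifiers, so the totals of 21454087 to 31905649 may include copies of the same molecule. They do not describe the spread between libraries.

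Values of every library are given for the lowest and highest fold change in HG against NG in each role group, and for the 4 smallest p in HG+CD200Fc against HG and in the interaction. Up to 4 genes with the smallest p per comparison are named from the lists of other genes. The 44 genes and the lists were chosen with earlier results of these data known. Some genes of the lists are not reported here by name.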

Additional observations from a re-analysis of the deposited data

Results flagged for a closer look

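The effect of CD200Fc differed between high and normal glucose, by the test of that difference in edgeR's quasi-likelihood model, for 10 of the 44 genes. On the log2 scale the effect in high glucose minus that in normal glucose was 0.48 for *Cdt1*, 0.44 for *Mcm5*, 0.41 for *Gins1*, 0.36 for *E2f1*, 0.32 for *Tk1*, 0.31 for *Chaf1a*, 0.29 for *Rfc5*, 0.28 for *Mcm2*, 0.28 for *Mcm3* and 0.27 for *Mcm6*. Gene values of single libraries were not screened for outliers, since groups held 3 libraries.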

How the results depend on the processing

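Across 21 alternatives (20 for the interaction) none of the genes called in any comparison changed direction. Of the calls, 19 of 26 in HG against NG, 0 of 5 in HG+CD200Fc against NG+CD200Fc, 13 of 17 in HG+CD200Fc against HG and 2 of 10 in the interaction passed in all alternatives. Of the 26 in HG against NG, 23 were kept with upper quartile scaling. With no filter, a stricter filter or the exon length and GC trend removed, 25 were kept. Of the 17 in HG+CD200Fc against HG, 15 were kept with no filter and 16 with that trend removed or the compared groups alone. Of the 5 in HG+CD200Fc against NG+CD200Fc, 3 were kept with that trend removed. Leaving out each library in turn gave 22 to 29 of the 44 genes called in HG against NG (median -0.27 to -0.22), 0 to 6 in HG+CD200Fc against NG+CD200Fc (median -0.093 to -0.062), 13 to 20 in HG+CD200Fc against HG (median 0.11 to 0.19), 0 in NG+CD200Fc against NG, and 3 to 14 in the interaction (median 0.17 to 0.23). With an arm of 2 libraries the spread was taken from all groups. Upper quartile scaling moved the median to -0.21 in HG against NG and -0.038 in HG+CD200Fc against NG+CD200Fc, and the library medians to 0.048 and 0.034 in HG+CD200Fc replicates 2 and 3, -0.139 in HG replicate 2, 0.059 in NG+CD200Fc replicate 3 and 0.103 in NG replicate 1. Fold changes of genes of at least 1 CPM had a Spearman correlation with exon length of 0.184 in HG against NG and 0.242 in HG+CD200Fc against NG+CD200Fc. It was 0.151 in HG+CD200Fc against HG, 0.276 in NG+CD200Fc against NG and 0.00501 in the interaction. Removing the exon length and GC trend gave a median of -0.29 in HG against NG. In HG+CD200Fc against NG+CD200Fc it moved the share of higher genes among all genes called from 56.0% to 33.8%. In HG+CD200Fc against NG+CD200Fc limma voom called 8 of the 44. The cause of these shifts was not tested.

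With the replicate block the calls were 28 lower in HG against NG, 5 lower and 2 higher in HG+CD200Fc against NG+CD200Fc, 20 higher in HG+CD200Fc against HG, 0 in NG+CD200Fc against NG and 11 in the interaction, and each call made without it was kept. The numbers were not shown to pair libraries: of 18 same-numbered pairs, 5 had a correlation of deviations over 0.1 (range -0.0793 to 0.207, across 14506 genes). For the interaction, a fit to the compared groups alone is the main fit and gave no separate value.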
